A study of Sus scrofa with 96 samples.

Results

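The extracellular matrix genes described here are the collagen chains, every symbol of the form COL, a number, A, a number, together with FN1, FBN1, FBLN1, DCN, LUM, BGN, POSTN, SPARC, LOX, ELN, TIMP1, MMP2, VIM and PDGFRA. They came to 52 genes, 38 collagen chains and 14 others, of 25880 counted gene identifiers, 14857 of which had a symbol. Genes were taken by name and not by a measured value, though the list was drawn up with earlier results of these data known. COL4A1 was not among the symbols of the counted genes, so its partner COL4A2 stands alone for that network.

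Collagens are trimers of chains wound into a triple helix. Types I, III and V form banded fibrils, type IV forms the sheet of basement membranes, type VI forms beaded filaments around cells, and types XV and XVIII carry sugar chains at the outer face of basement membranes. Fibroblasts and related stromal cells make most fibril collagen, small proteoglycans such as decorin regulate fibril width, lysyl oxidase cross-links the fibrils, and matrix metalloproteinases with their inhibitors govern turnover.

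The samples were taken from pigs (Sus scrofa), from the cortex of the kidney, the mucosa of the jejunum, the liver and the longissimus dorsi, a back muscle, of animals fed a control diet without xylose or a diet holding 8% D-xylose, a pentose sugar. With 4 tissues and both diets there were 8 groups of 12 samples, and the series describes 24 animals. The RNA was read with QuantSeq, a method that counts fragments from the 3' end of polyadenylated transcripts. The study compared expression between the diets in each tissue.

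For 90 of the 96 files, the sample title in the file's name and the sample record that held the file differed, and the titles were followed. Tissue marker genes matched the title in 96 of 96 libraries and the record in 48, and they cannot check the diet. Libraries under 1000000 counts, 5 of jejunum and 1 of liver with 13418 to 915907 counts, were left out. The 90 kept had 1044588 to 6942566 counts, with 9 control and 10 xylose libraries of jejunum, 12 and 12 of kidney, 12 and 11 of liver, and 12 and 12 of muscle. By title, each of the 2 sequencing lanes held both diets of every tissue. Muscle xylose replicate 7 stood apart, with 0.610% of its counts in liver markers against at most 0.196% in the other muscle libraries. Muscle markers held 15.85% of its counts, against at least 23.7% in the others. It held the highest muscle level of FN1, BGN, FBLN1, COL17A1 and COL18A1. Several muscle results that it moved are given with and without it, while muscle means include it. Of the members' tissue differences called below, 161 were kept without it and 2 lost the call.

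Levels are scaled CPM, counts scaled to a common library total after correction by TMM (a factor for each library that evens out the bulk of genes). The factors had medians of 1.58 for kidney, 1.30 for jejunum, 0.832 for liver and 0.598 for muscle, so plain CPM puts muscle lower and kidney higher. On plain library totals the median of all genes moved to -0.26 on the log2 scale for jejunum against kidney, 0.73 for jejunum against liver, 1.29 for jejunum against muscle, 0.99 for kidney against liver, 1.57 for kidney against muscle and 0.56 for liver against muscle. With TMM these medians lay between -0.00 and 0.16. Values are mean ± SD over 19 jejunum, 24 kidney, 23 liver and 24 muscle libraries unless a group is named. Only changes of at least 2-fold with an adjusted p under 0.05 by edgeR's quasi-likelihood test over 12266 genes were called between tissues. In bulk tissue, fewer cells of a type and less RNA per cell cannot be told apart.

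Of the 52 genes, 35 passed the filter on low counts and could be compared between tissues, 22 of them collagens. The other 17, among them ELN with 18 counts over the 90 libraries, COL6A2 with 85 and COL5A1 with 93, held 0 to 310 counts each, and COL9A3 held 0. COL6A1, the partner of COL6A2, held 11494. Counts were taken at 3' ends with an annotation not given in the sources used here, so these low counts cannot be read as low expression. The mean level was highest in muscle for 23 of the 35, in kidney for 7, in liver for 4 and in jejunum for 1. On plain CPM muscle led for 15 and kidney for 16. All tissue differences below are calls of that test unless said otherwise.

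The fibril collagens were highest in muscle. COL1A1 (ENSSSCG00000036135), the main chain of type I collagen, had a lowest, median and highest level of 15.5, 28.0 and 45.3 scaled CPM in jejunum, 47.1, 168.5 and 357 in kidney, 73.0, 110.2 and 338 in liver, and 1062, 2083 and 7823 in muscle. The muscle libraries did not overlap with any other tissue. The mean of 2330 ± 1329 in muscle was 17.1-fold that of liver by the fitted log2 difference of -4.09 ± 0.20 (SE, liver against muscle, adjusted p = 8.74e-35). Kidney and liver overlapped and their difference was not called (0.31 ± 0.18 on the log2 scale). The muscle maximum was xylose replicate 8, and the next library stood at 3283.

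COL3A1, the chain of type III collagen found in pliable tissue, followed the same order between muscle and the rest, with 1779 ± 534 scaled CPM in muscle, 308 ± 92.5 in liver, 179 ± 78.4 in kidney and 34.7 ± 7.70 in jejunum. Its kidney and liver ranges overlapped, and the difference of -0.79 ± 0.13 was below the 2-fold minimum (0.08 on plain library totals). COL1A2, the partner chain of COL1A1, stood at 1474 ± 739 in muscle, 126 ± 50.7 in kidney, 97.9 ± 39.4 in liver and 39.2 ± 11.9 in jejunum. The minor fibril chains behaved likewise. COL5A2 reached 73.3 ± 20.6 in muscle against at most 11.0 ± 4.47 elsewhere, COL5A3 reached 28.2 ± 8.45 against at most 1.85 ± 0.81, and COL11A1 reached 14.0 ± 11.4 against at most 0.837 ± 0.779.

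**Figure D1:**
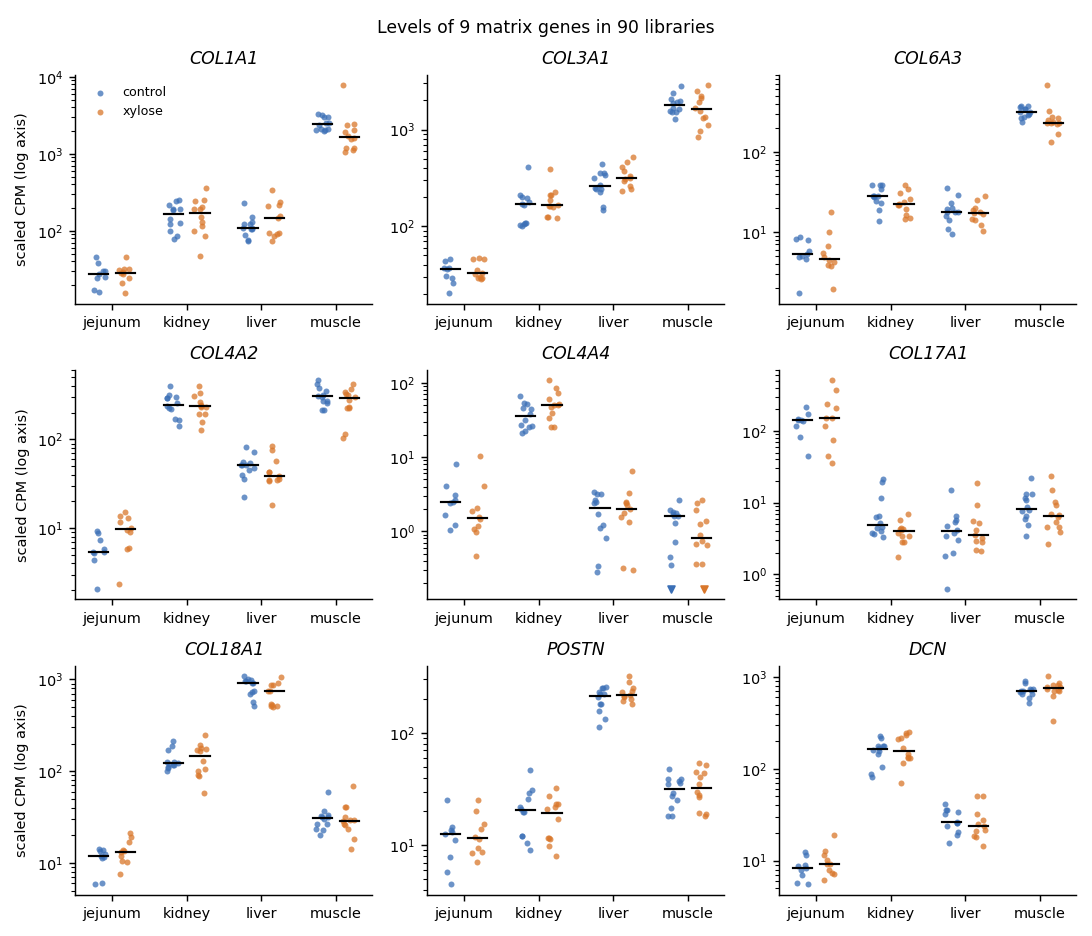
Scaled CPM (log axis) of 9 matrix genes in each of the 90 libraries by tissue, with control in blue, xylose in orange, bars at the median of each group and triangles for libraries with 0 counts. COL1A1 in muscle lay at 1062 or above in every library, and COL17A1 in jejunum lay at 35.8 or above.

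The basement membrane chains did not share one order. COL4A2, a ubiquitous type IV chain, ranged from 129 to 399 scaled CPM in kidney (median 238) and from 102.8 to 462 in muscle (median 304), and these ranges overlapped widely (-0.23 ± 0.14 on the log2 scale, kidney against muscle, adjusted p = 0.133 by edgeR). Both tissues were above liver, at 48.4 ± 17.5, and jejunum, at 7.92 ± 3.74. COL4A3, COL4A4 and COL4A5, the chains that form the network of the glomerular filter in mammals, were instead highest in kidney.

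COL4A4 had a lowest, median and highest level of 20.8, 45.3 and 107 scaled CPM in kidney, and no library of another tissue exceeded 10.4. COL4A3 stood at 9.45 ± 5.13 in kidney and 2.02 ± 1.11 in jejunum, with 0 counts in 9 of the 23 liver and 9 of the 24 muscle libraries. COL4A5 stood at 27.5 ± 7.42 in kidney, 6.97 ± 2.18 in liver, 4.77 ± 2.54 in muscle and 3.05 ± 1.96 in jejunum. Fitted log2 differences of kidney against liver were 4.46 ± 0.24 for COL4A4, 4.71 ± 0.30 for COL4A3 and 1.98 ± 0.17 for COL4A5.

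COL18A1, whose C-terminal fragment is endostatin, was the collagen of liver. Its lowest, median and highest levels were 497, 744 and 1088 scaled CPM in liver, 58.3, 124 and 247 in kidney, 14.0, 29.3 and 68.7 in muscle, and 5.85, 12.5 and 21.0 in jejunum. Liver did not overlap with any other tissue, and the log2 difference of kidney against liver was -2.46 ± 0.13 (adjusted p = 7.36e-31 by edgeR). Its close relative COL15A1 had another pattern, with 133 ± 33.5 in muscle, 54.1 ± 14.3 in kidney, 2.54 ± 0.94 in jejunum and 2.46 ± 0.99 in liver. COL15A1 was called lower in kidney than in muscle (-1.27 ± 0.12), and this direction reversed to 0.14 on plain library totals, without a call.

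COL17A1, the transmembrane chain of hemidesmosomes, which anchor epithelial cells to the basement membrane, was the 1 member highest in jejunum. Its lowest, median and highest levels there were 35.8, 144 and 506 scaled CPM, and no kidney, liver or muscle library exceeded 23.3. The log2 differences of jejunum were 4.83 ± 0.28 against kidney, 4.91 ± 0.28 against liver and 4.17 ± 0.27 against muscle. The other tissues stood at 3.63%, 3.09% and 5.48% of the jejunum mean, while jejunum markers stood at medians of 0.559%, 0.544% and 0.609% of their own tissue's level in kidney, liver and muscle. Reads assigned to the wrong library were not tested as a source of the low COL17A1 values.

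The filament chains COL6A1 and COL6A3 were highest in muscle, at 129 ± 55.9 and 291 ± 102.8 scaled CPM. COL6A3 did not overlap between muscle, with 134 to 682, and any other tissue, which reached at most 38.7. COL6A5, a chain of the same type with a different spread, was highest in kidney, at 14.8 ± 13.2, and in liver, at 11.2 ± 9.14, with 0 counts in 10 of the 24 muscle libraries. Its kidney and liver levels overlapped and were not called apart (0.39 ± 0.29). COL14A1, a chain that sits on the surface of fibrils, stood at 90.1 ± 15.7 and 89.2 ± 14.1 in kidney and liver, which were not called apart (0.01 ± 0.09 on the log2 scale), and at 472 ± 86.7 in muscle and 40.7 ± 9.73 in jejunum. COL12A1, a related fibril-surface chain, was called lower in jejunum than in muscle (adjusted p = 0.0349 by edgeR, 0.629 ± 0.520 against 1.21 ± 1.04), and this direction reversed to 0.13 on plain library totals, without a call. Its highest mean was in kidney, at 4.18 ± 2.79.

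**Figure D2:**
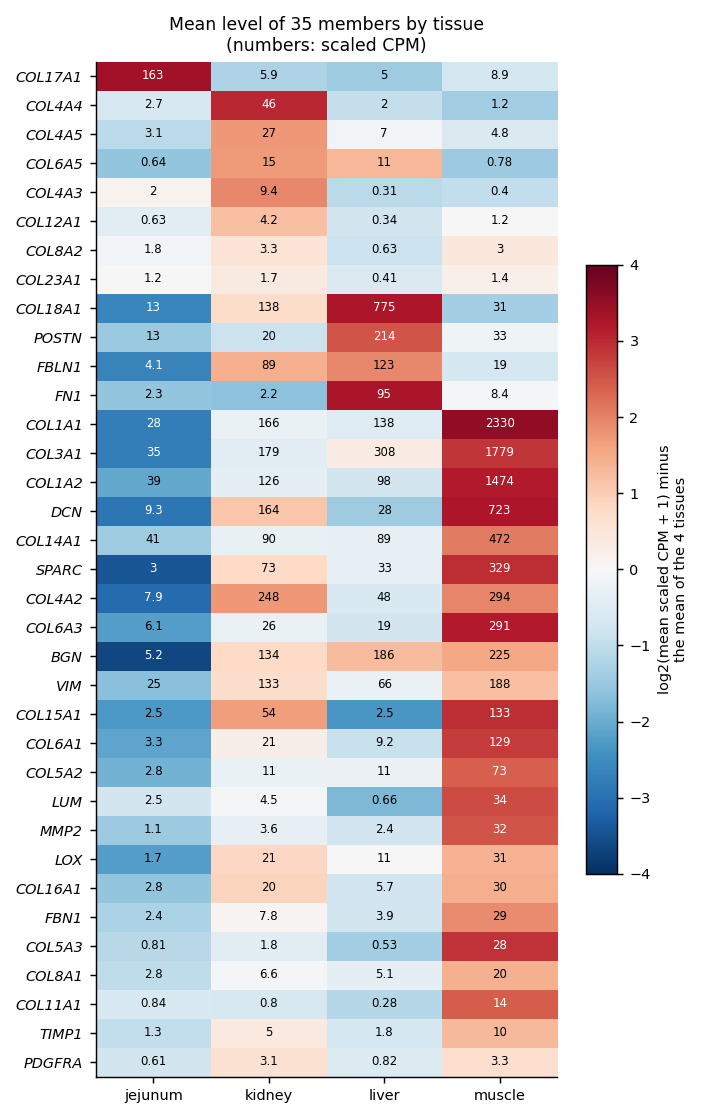
Mean scaled CPM (numbers) of the 35 members compared between tissues, coloured by log2(mean + 1) minus the mean over the 4 tissues and ordered by the tissue of the highest mean. COL17A1 stands alone in the jejunum group, COL4A3, COL4A4 and COL4A5 lie in the kidney group, and COL18A1, POSTN, FBLN1 and FN1 make up the liver group.

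Among the small proteoglycans, DCN (decorin) had lowest, median and highest levels of 335, 726 and 1025 scaled CPM in muscle, 69.7, 164 and 253 in kidney, 14.6, 25.7 and 51.2 in liver, and 5.52, 8.71 and 19.2 in jejunum. Muscle and kidney, and kidney and liver, did not overlap, while liver and jejunum did. All 6 tissue pairs were called, with kidney against muscle at -2.14 ± 0.13. LUM (lumican), its relative on fibrils, stood at 33.9 ± 12.1 in muscle and at most 4.49 ± 3.55 elsewhere. BGN (biglycan) stood at 225 ± 211 in muscle, 185.5 ± 90.2 in liver, 133.5 ± 114 in kidney and 5.21 ± 2.07 in jejunum. The first 3 tissues overlapped and no difference between them was called.

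Adhesive glycoproteins made up the rest of the liver group. FN1 (fibronectin), which hepatocytes secrete into plasma, had a lowest, median and highest level of 37.7, 75.5 and 355 scaled CPM in liver, against medians of 2.42 in jejunum, 1.41 in kidney and 4.39 in muscle. Muscle xylose replicate 7 stood at 87.0 and the next muscle library at 11.7, and it was the 1 library of the other tissues inside the liver range. POSTN (periostin), a matricellular protein, had 112, 216 and 320 in liver and at most 54.4 in any library of the other tissues. FBLN1 (fibulin 1), a component of elastic fibres and basement membranes, stood at 123 ± 63.4 in liver and 88.6 ± 50.2 in kidney, which were not called apart (-0.50 ± 0.20), and at 18.8 ± 13.8 in muscle and 4.09 ± 1.69 in jejunum. FBN1 (fibrillin 1), the main chain of microfibrils, was highest in muscle at 29.0 ± 9.49, with at most 7.76 ± 5.06 elsewhere. SPARC (osteonectin), a collagen-binding protein, stood at 329 ± 227 in muscle, 72.9 ± 61.8 in kidney, 33.2 ± 30.0 in liver and 2.95 ± 2.21 in jejunum.

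The enzymes and inhibitors of turnover were lower counted. MMP2 (gelatinase A) stood at 32.0 ± 7.69 scaled CPM in muscle and at most 3.60 ± 1.64 elsewhere. LOX, the cross-linking lysyl oxidase, stood at 31.4 ± 23.3 in muscle and 20.8 ± 7.22 in kidney, which were not called apart (-0.59 ± 0.19, kidney against muscle), and TIMP1, a metalloproteinase inhibitor, at 10.3 ± 7.66 in muscle and 4.97 ± 1.98 in kidney, likewise not called (-0.97 ± 0.21). The cell markers VIM (vimentin, the intermediate filament of mesenchymal cells) and PDGFRA (a receptor of fibroblasts) gave no call between kidney and muscle. VIM stood at 188 ± 60.8 in muscle, 133 ± 37.7 in kidney, 66.1 ± 21.4 in liver and 24.8 ± 9.07 in jejunum. PDGFRA stayed at or below 3.32 ± 2.45 in every tissue, with 0 counts in 5 of the 19 jejunum libraries.

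Counted over the 35 members, 1 was higher and 28 lower in jejunum than in kidney, where 21.9% and 24.1% of all genes were higher and lower. Against liver, 6 were higher and 21 lower in jejunum (26.9% and 23.2% of all genes), and against muscle 3 and 28 (32.3% and 26.6%). Kidney against liver gave 19 higher and 3 lower (20.8% and 14.5%), kidney against muscle 7 and 17 (27.1% and 18.1%), and liver against muscle 5 and 25 (25.5% and 22.6%). The median log2 difference of the members was -2.29, -1.23 and -3.54 for jejunum against kidney, liver and muscle, 1.02 for kidney against liver, -0.97 for kidney against muscle and -2.36 for liver against muscle, beside medians of all genes between -0.00 and 0.16. On plain library totals the counts for kidney against muscle were 11 higher and 10 lower, and those for jejunum against liver 8 higher and 13 lower.

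Markers of the cells that make matrix moved between the tissues too. All 8 tested endothelial markers were lower in jejunum than in each other tissue, and 7 of 8 fibroblast markers were. Of all genes, 24.1%, 23.2% and 26.6% were lower in jejunum than in kidney, liver and muscle. The summed level of the 9 fibroblast markers ranged from 11.8 to 38.5 scaled CPM in jejunum, 174 to 501 in kidney, 394 to 1177 in liver and 142 to 512 in muscle, and none of the 9 was at 0 in every library of a tissue. Liver had the highest fibroblast marker sum, led by GPC3 and SERPINF1, while the fibril collagens were highest in muscle. Which liver cells express these genes cannot be told from bulk tissue, so the sum does not measure fibroblast number. Immune markers were higher in jejunum than in muscle in 5 of 7 and lower in 1 (32.3% and 26.6% of all genes). Smooth muscle and pericyte markers were higher in muscle than in jejunum in 7 of 7 (26.6% of all genes). DES, which skeletal fibres also express, was among them. The part of these cells in the member levels was not tested. Muscle markers stood at a median of 0.508% of their muscle level in jejunum, where COL1A1 stood at 1.22%, COL3A1 at 1.95% and DCN at 1.29% of muscle.

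Of the other matrix genes, 15 for elastic fibres and small proteoglycans were tested. In kidney 11 were higher than in liver and 1 lower (20.8% and 14.5% of all genes). In liver 12 were lower than in muscle and 1 higher (22.6% and 25.5% of all genes). FBLN5, which assembles elastic fibres, stood at 118 ± 32.6 scaled CPM in kidney and at most 21.1 ± 5.31 elsewhere, and OMD (osteomodulin, a small proteoglycan) at 111 ± 53.6 in kidney and 55.7 ± 37.3 in muscle. Among basement membrane genes, 6 of 10 were lower and 2 higher in liver than in muscle (22.6% and 25.5% of all genes). LAMC1, a laminin chain, stood at 298 ± 72.0 in muscle and at most 59.0 ± 12.3 elsewhere, while NID1 (nidogen) was highest in liver at 102.6 ± 32.1.

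Collagen processing genes split, with 8 of 19 higher and 8 lower in liver than in muscle (25.5% and 22.6% of all genes). P4HB, a subunit of prolyl hydroxylase that also folds other secreted proteins, stood at 1072 ± 460 scaled CPM in liver, 757 ± 285 in jejunum and 155 ± 88.9 in muscle. SERPINH1, the chaperone specific to collagen, stood at 276 ± 98.8 in kidney, 198 ± 86.2 in muscle, 77.8 ± 26.0 in liver and 13.6 ± 3.93 in jejunum. Of 11 cross-linking and turnover genes, 8 were lower in jejunum than in muscle and 1 higher (26.6% and 32.3% of all genes). That 1 was MMP1, interstitial collagenase, at 89.1 ± 40.2 in jejunum and at most 0.706 ± 0.432 elsewhere. TGF-beta signalling is a pathway that raises collagen transcription. Of its 17 tested genes, 10 were lower in jejunum than in muscle and 2 higher (26.6% and 32.3% of all genes). THBS1, which activates latent TGF-beta, stood at 134 ± 40.2 in kidney and at most 10.9 ± 6.48 elsewhere. Of 7 collagen receptors, 4 were higher and 0 lower in kidney than in liver (20.8% and 14.5% of all genes). Among the 4 was DDR1, a receptor kinase for collagen, at 138 ± 36.7 in kidney and 8.73 ± 2.26 in liver.

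Within a tissue, the members differed in how much they varied between libraries. SPARC was the most variable member in kidney, liver and muscle, with SDs of 1.58, 1.45 and 1.29 on the log2 scale, larger than those of 99.8%, 99.6% and 99.5% of all genes there. Its lowest, median and highest levels were 4.78, 56.0 and 222 scaled CPM in kidney, 2.39, 27.7 and 135 in liver and 26.8, 284 and 862 in muscle. COL14A1 was the steadiest member in the same 3 tissues, with SDs of 0.26, 0.22 and 0.24. In jejunum, where SPARC was too low to be tested within the tissue, COL17A1 varied most (SD 0.98) and COL3A1 least (0.32).

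The question of which matrix genes vary together was addressed over the libraries of each tissue, on log2(CPM + 1) with plain CPM. Pearson's r and Spearman's rho were computed for 47 relations, 35 between genes and 12 with library properties, with permutation p-values adjusted over all 47. Of the gene pairs, 16 passed on r and 12 on rho. Without the 2 libraries farthest from the median, 9 of the 16 still had a p under 0.05 and 7 did not. On TMM-scaled CPM 9 of the 47 relations passed in place of 18.

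The chains of type I collagen, COL1A1 and COL1A2, had r = 0.82 in liver (rho 0.79, permutation adjusted p = 0.000235, r = 0.76 without the 2 farthest, 0.88 in lane 7 and 0.71 in lane 8). The raw permutation p of 1e-05 is the smallest these resamples can give. In muscle r was 0.67 (rho 0.64, permutation adjusted p = 0.00602, r = 0.44 without the 2 farthest, 0.63 and 0.78 within lanes). In kidney r was 0.54 (rho 0.48, permutation adjusted p = 0.0231), with 0.68 in lane 7 and 0.37 in lane 8. It fell to 0.34 (unadjusted permutation p = 0.123) without the 2 farthest libraries, and leaving these out also narrows the range. On TMM-scaled CPM it no longer passed (r = 0.48). In jejunum r = 0.53 did not pass (permutation adjusted p = 0.0515).

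COL3A1 and VIM gave the highest r of the relations run, 0.89 in muscle (rho 0.86, permutation adjusted p = 0.000235, r = 0.83 without the 2 farthest, 0.83 in lane 7 and 0.93 in lane 8). It was 0.88 without muscle xylose replicate 7. In kidney their r was 0.55 (rho 0.52, permutation adjusted p = 0.0225, 0.55 and 0.56 within lanes) and in liver 0.50 (rho 0.43, permutation adjusted p = 0.043, 0.48 and 0.51 within lanes). Neither passed on TMM-scaled CPM (r = 0.50 and 0.40), and in jejunum 0.33 did not pass on plain CPM. COL1A1 and COL3A1 had r of 0.67 in liver (rho 0.57, permutation adjusted p = 0.00602, 0.79 and 0.56 within lanes) and 0.42 in muscle (rho 0.53), which did not pass. The pair also passed in jejunum (r = 0.56, rho 0.49, permutation adjusted p = 0.0327) and kidney (r = 0.52, rho 0.61, permutation adjusted p = 0.0257). Without the 2 farthest libraries r was 0.39 in jejunum and 0.42 in kidney. On TMM-scaled CPM neither of these tissues passed (r = 0.47 in each). COL6A1 and COL6A3 had r of 0.54 in liver (rho 0.49, permutation adjusted p = 0.0243, 0.56 and 0.46 within lanes, 0.49 without passing on TMM-scaled CPM) and 0.55 in muscle (rho 0.52, permutation adjusted p = 0.0231, 0.32 and 0.81 within lanes). The muscle value fell to 0.41 without the 2 farthest libraries and to 0.36 without xylose replicate 8, which held the highest level of both chains.

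DCN and LUM, neighbours in function on the fibril surface, had r = 0.74 in muscle (rho 0.61, permutation adjusted p = 0.00172, r = 0.51 without the 2 farthest, 0.61 without muscle xylose replicate 7, 0.42 and 0.82 within lanes) and -0.29 in kidney (permutation adjusted p = 0.28). On scaled CPM the muscle r was 0.57 with all libraries and 0.18 without muscle xylose replicate 7, so on that scale the relation rested on 1 library. The difference between these tissues was not tested. TIMP1 and MMP2 had r = 0.63 in kidney (rho 0.53, permutation adjusted p = 0.00807), falling to 0.38 without the 2 farthest libraries, with 0.37 and 0.75 within lanes. COL3A1 and PECAM1, an endothelial gene, had r = 0.67 in jejunum (rho 0.48, permutation adjusted p = 0.0121), which fell to 0.44 without the 2 farthest, with 0.77 and 0.32 within lanes. COL3A1 and ACTA2, an actin of smooth muscle cells and pericytes, had r = 0.55 in muscle (rho 0.59, permutation adjusted p = 0.0225, 0.63 and 0.48 within lanes), 0.58 without the 2 farthest and 0.45 on TMM-scaled CPM, where it did not pass.

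SPARC went against several members. COL1A1 and SPARC had r = -0.59 in kidney (rho -0.56, permutation adjusted p = 0.0121, r = -0.61 without the 2 farthest, -0.63 in lane 7 and -0.53 in lane 8), and -0.13 in liver and -0.01 in muscle. As a description over scaled CPM, SPARC had r of -0.75 with BGN and -0.76 with FBLN1 in 24 kidney libraries, -0.69 with COL17A1 and -0.65 with FBLN1 in 23 liver libraries, and -0.60 with FN1 in 24 muscle libraries. It went with COL4A4 in kidney (0.53), COL4A2 in liver (0.69) and DCN in muscle (0.61). Without muscle xylose replicate 7 the muscle values were -0.60 with FN1 and 0.60 with DCN. Its r with the mitochondrial share of counts was -0.32 for kidney, -0.51 for liver and -0.47 for muscle. With the library total it was 0.07, -0.29 and -0.14. The part of library quality in these relations was not tested.

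**Figure D3:**
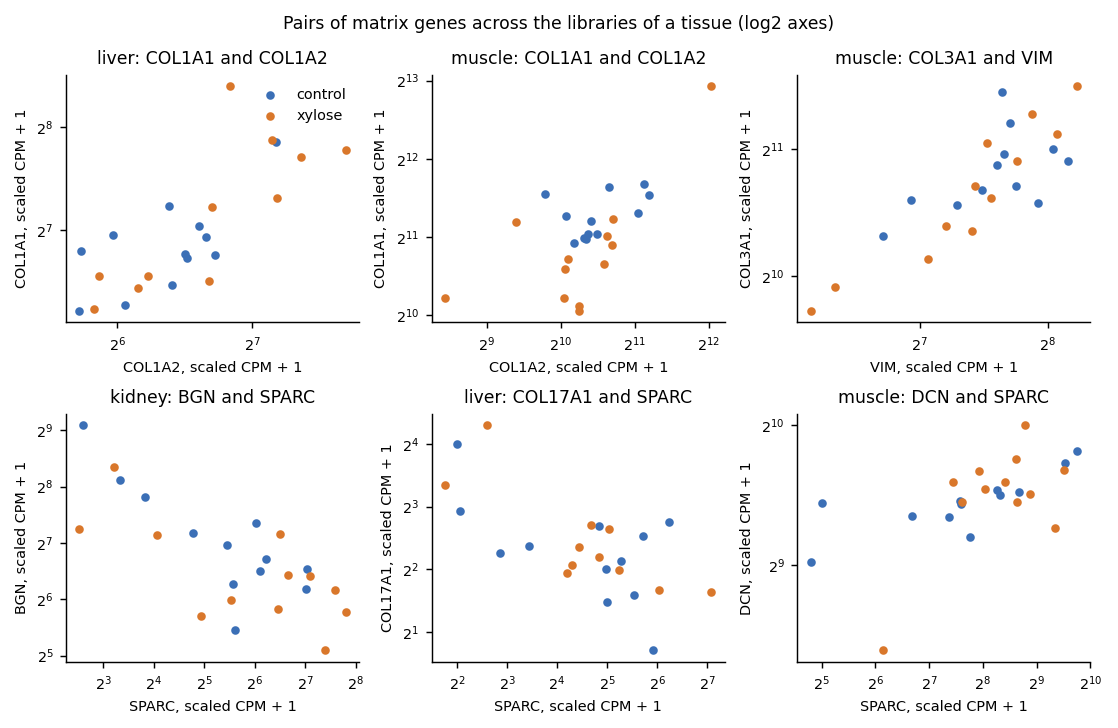
Scaled CPM + 1 of pairs of matrix genes (log2 axes), a point for each library of a tissue, control in blue and xylose in orange. COL3A1 and VIM rise together in muscle (r = 0.83 on this scale), BGN falls as SPARC rises in kidney (r = -0.75), and 1 muscle library, xylose replicate 8, lies apart for COL1A1 at 7823.

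Over all pairs of members within a tissue the median r was 0.32 in jejunum (13 members), 0.18 in kidney (31), 0.26 in liver (23) and 0.35 in muscle (27), where all pairs of tested genes had medians of 0.02, 0.01, 0.06 and 0.10. On scaled CPM the members' medians were 0.22, 0.16, 0.20 and 0.26, and those of all genes 0.00, 0.00, 0.00 and 0.01. Points in these comparisons share libraries and depth, and genes are not independent replicates. On plain CPM, 36.2% of member pairs in muscle had an r over 0.5, against 12.8% of all pairs. The shares were 20.5% against 9.61% in jejunum, 19% against 8.87% in liver and 15.7% against 11.4% in kidney.

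**Figure D4:**
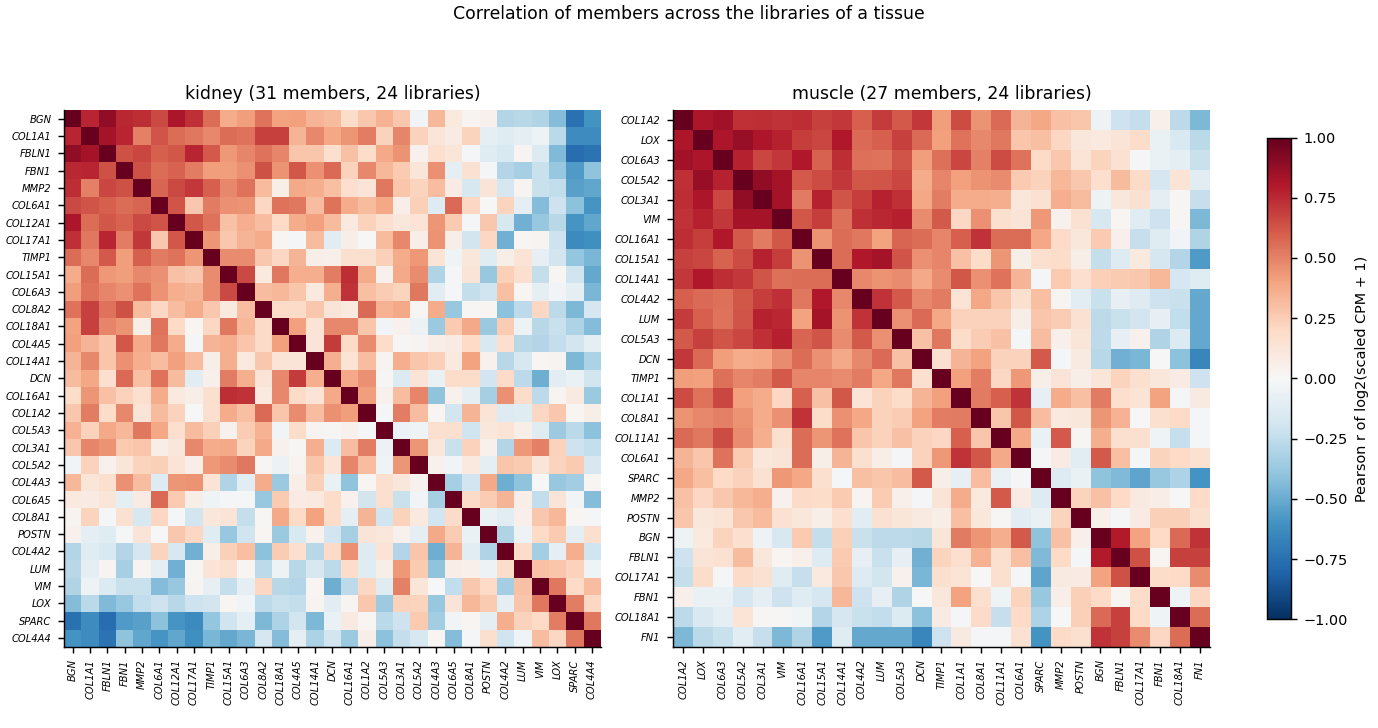
Pearson r of log2(scaled CPM + 1) between members over 24 kidney libraries (left, 31 members) and 24 muscle libraries (right, 27 members), members ordered by their weight on the leading axis of the matrix. SPARC and COL4A4 lie apart from BGN, COL1A1 and FBLN1 in kidney, and BGN, FBLN1, COL17A1, FBN1, COL18A1 and FN1 stand at the low end of the order in muscle, where BGN still went with COL1A1 (r = 0.52).

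The relations of these muscle genes rested in part on xylose replicate 7. BGN and FBLN1 had r = 0.79 with it and 0.70 without it, FBLN1 and FN1 had 0.68 and 0.39, COL18A1 and FN1 had 0.56 and 0.27, and COL17A1 and COL18A1 had 0.20 and -0.04. DCN and FN1 had -0.65 with that library and -0.19 without it. With the type I chains the values rose when that library was left out, from 0.52 to 0.82 for BGN and COL1A1, from 0.09 to 0.50 for FN1 and COL1A1, and from -0.05 to 0.41 for BGN and COL1A2. The members' median r in muscle was 0.26 with all libraries, 0.29 without xylose replicate 7 and 0.20 without xylose replicate 8.

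The genes most like the fibril collagens were found by r with the mean of COL1A1, COL1A2 and COL3A1 over the 90 libraries, after group and lane means were subtracted, among 6984 genes tested in all 4 tissues. The chains themselves entered that mean. After them came COL6A3 (r = 0.69), MGP (matrix Gla protein, an inhibitor of calcification, 0.68), COL14A1 (0.62), SPARCL1 (a relative of SPARC, 0.59), ASPN (asporin, a small proteoglycan, 0.58), IGFBP5 (0.57), TIMP3 (a matrix-bound metalloproteinase inhibitor, 0.54), PDE5A (0.54), EIF3B (0.53), DCN (0.52), MAP1B (0.52) and the gene ENSSSCG00000035293 (0.52). The median over all 6984 genes was 0.11. Of these 12 genes 3 were members, where members made up 0.186% of the genes compared (13 of 6984, the 3 chains included). Within single tissues the r of MGP was 0.76 for kidney, 0.73 for liver, 0.71 for jejunum and 0.63 for muscle. Some of the others were less even. PDE5A had 0.24 for jejunum and 0.77 for liver, EIF3B 0.36 for muscle and 0.81 for liver, and DCN 0.34 for kidney and 0.74 for muscle.

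Relations with technical measures were tested for COL3A1 alone. In jejunum its r with the library total was -0.69 (rho -0.65, permutation adjusted p = 0.0121, -0.93 and -0.48 within lanes), and -0.57 on TMM-scaled CPM, where it did not pass. In liver its r with the mitochondrial share was 0.61 (rho 0.46, permutation adjusted p = 0.0121, 0.65 and 0.55 within lanes), and 0.24 without the 2 farthest libraries. The other 10 of the 12 technical relations did not pass, among them the share of other tissues' markers in jejunum. Liver markers in that share reached up to 184.9% of their liver level in jejunum, so it cannot measure reads from other tissues there. With all jejunum libraries its r was 0.50 and passed (permutation adjusted p = 0.0392). The muscle markers compared had r of 0.42 (NEB) to 0.61 (PYGM) in jejunum with the mean of the 3 fibril chains used above. As a description over scaled CPM, r with the library total was below 0 for 11 of the 13 jejunum members (median -0.42), with -0.77 for DCN, -0.73 for COL6A3 and -0.63 for COL1A1. The members' median was 0.18 in kidney, 0.06 in liver and 0.14 in muscle. The part of depth, and of reads from other libraries, in the relations between jejunum members was not tested.

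The diet question was tested within each tissue with lane as a term. No member was called in any tissue by edgeR's quasi-likelihood test, of 13 jejunum, 31 kidney, 23 liver and 27 muscle members tested, and none was called by DESeq2. The background was the same, with 0% of all genes called in each tissue (0 of 8867, 10128, 9194 and 8436). At an unadjusted p under 0.05, 404, 720, 618 and 620 genes and 1, 3, 2 and 1 members stood below that line. The 95% interval of the fold change lay within 2-fold on either side for 11 of 13, 21 of 31, 18 of 23 and 24 of 27 members, beside 86.4%, 85.8%, 91.3% and 91.3% of all genes. For the other members a 2-fold difference was not outside the interval. The samples' link to animals is not in the labels, so p-values measure the spread between these samples.

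**Figure D5:**
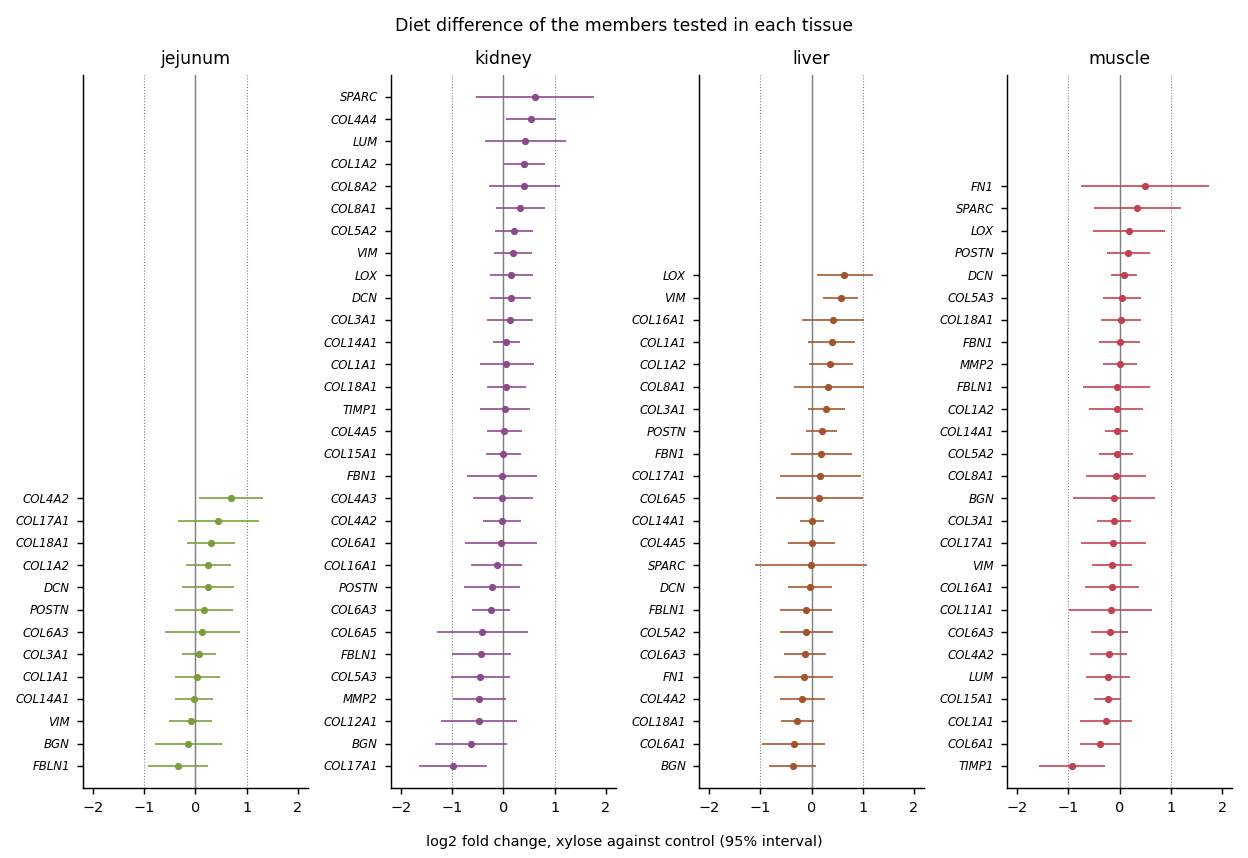
Log2 fold change of xylose against control for every member tested in a tissue, points with 95% intervals from edgeR, dotted lines at 2-fold in either direction. No member passed the adjusted threshold, and the interval of VIM in liver ran from 0.22 to 0.91.

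In liver the smallest p belonged to VIM. Its lowest, median and highest levels were 31.8, 51.6 and 76.2 scaled CPM in control and 45.9, 78.8 and 112 in xylose libraries, which overlapped. The log2 fold change was 0.57 ± 0.17 (SE) with an adjusted p of 0.720 by edgeR. LOX in liver stood at 8.74 ± 5.005 in control and 13.4 ± 3.76 in xylose (0.64 ± 0.27), and COL1A2 at 85.2 ± 25.8 and 112 ± 47.8 (0.37 ± 0.21). Against that direction COL18A1 stood at 839 ± 183 and 706 ± 200.1 (-0.28 ± 0.15), BGN at 208 ± 107 and 161 ± 63.9 (-0.36 ± 0.22) and COL6A1 at 9.90 ± 4.97 and 8.37 ± 5.73.

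In kidney COL17A1 had the smallest p, with 3.27, 4.83 and 21.5 scaled CPM as lowest, median and highest in control and 1.72, 4.01 and 6.90 in xylose libraries. The ranges overlapped, and the log2 fold change was -0.98 ± 0.33 (adjusted p = 0.653 by edgeR). COL4A4 stood at 37.9 ± 14.6 in control and 54.0 ± 24.5 in xylose libraries (0.54 ± 0.23), COL1A2 at 109 ± 27.5 and 144 ± 62.9 (0.41 ± 0.20) and COL8A1 at 5.91 ± 2.55 and 7.29 ± 2.89. MMP2 stood at 4.18 ± 2.05 and 3.01 ± 0.83 (-0.47 ± 0.25) and BGN at 162.5 ± 137.5 and 104.5 ± 80.0 (-0.63 ± 0.34).

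In jejunum COL4A2 stood at 5.97 ± 2.24 scaled CPM in control and 9.67 ± 4.04 in xylose libraries, with overlapping ranges (0.70 ± 0.31, adjusted p = 0.954 by edgeR). COL17A1 stood at 134 ± 50.0 and 189 ± 150 (0.45 ± 0.38), COL18A1 at 11.2 ± 3.16 and 13.8 ± 4.17 (0.30 ± 0.23), FBLN1 at 4.65 ± 1.38 and 3.59 ± 1.84 (-0.34 ± 0.28), BGN at 5.505 ± 2.31 and 4.94 ± 1.91 (-0.14 ± 0.32) and VIM at 25.9 ± 11.0 and 23.8 ± 7.38.

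In muscle TIMP1 had the smallest p, with lowest, median and highest levels of 3.88, 12.1 and 39.9 scaled CPM in control and 2.22, 6.21 and 12.3 in xylose libraries (-0.93 ± 0.31, adjusted p = 0.614 by edgeR). COL6A1 stood at 144 ± 25.7 and 113 ± 73.0 (-0.39 ± 0.19) and COL15A1 at 144 ± 24.2 and 122 ± 38.8 (-0.23 ± 0.13). FN1 stood at 5.97 ± 2.90 and 10.8 ± 24.1 (0.50 ± 0.61), and its fold change turned to -0.62 ± 0.33 on the log2 scale when xylose replicate 7 was left out. In the same fit FBLN1 went from -0.06 ± 0.32 to -0.51 ± 0.22, COL17A1 from -0.13 ± 0.31 to -0.47 ± 0.23 and BGN from -0.10 ± 0.39 to -0.42 ± 0.32, and none passed. POSTN stood at 31.0 ± 9.27 and 34.2 ± 12.6, and SPARC at 296 ± 261 and 363 ± 193. Markers of liver were above 0 on the log2 scale in all 14 tested in muscle, 13 with an unadjusted p under 0.05, and none passed. Without xylose replicate 7 all 14 were still above 0, 7 had an unadjusted p under 0.05, none passed, and their median log2 fold change was 0.31 in place of 0.76.

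Muscle xylose replicate 8 held the highest level of 11 of the 27 members tested in muscle, among them COL1A1, COL1A2, COL6A1, COL6A3, COL14A1, DCN and LOX. COL1A1, COL6A1, COL6A3 and COL11A1 are given without it, and these 4 were picked out after their values were seen. For COL1A1, the control libraries ran from 1949 to 3283 (median 2423) and the xylose libraries from 1062 to 7823 (median 1649), with 8 of 12 xylose libraries below the lowest control and 1 above the highest. The number below the lowest control was 7 for COL6A3, 6 for COL6A1 and 0 for COL11A1, and 1 library was above the highest control for each. The log2 fold change was -0.26 ± 0.25 with that library and -0.58 ± 0.15 without it (adjusted p = 0.856 and 0.408 by edgeR), and with all libraries it was -0.80 in lane 7 alone and turned to 0.27 in lane 8 alone. COL6A1 went from -0.39 ± 0.19 to -0.60 ± 0.14 (adjusted p = 0.684 and 0.278), and COL6A3 from -0.19 ± 0.18 to -0.42 ± 0.12 (adjusted p = 0.845 and 0.408). COL11A1 went from -0.17 ± 0.39 to -0.67 ± 0.32. Without this library 7 of 28 members had an unadjusted p under 0.05 in place of 1 of 27, and 0 passed. The share of all genes below that line in this fit was not counted, so the 7 have no background beside them. In the same fit 14 of 14 liver markers were below that line. Under the recorded diets the directions of COL1A1 and COL6A1 were reversed (0.33 and 0.51).

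Whether a diet difference depended on the tissue was tested as an interaction, in which 0.00815% of genes (1 of 12266) and 0 members passed. COL17A1, VIM and COL4A2, 3 of 35 members, had an unadjusted p under 0.05 there, as had 601 of 12266 genes. Between the 2 lanes, the share of genes called was 9.52% for jejunum, 0.0197% for kidney, 0.0109% for liver and 2.57% for muscle, and 0 members were called in any tissue. At an unadjusted p under 0.05 there were 3 of 13, 2 of 31, 4 of 23 and 5 of 27 members. Of all genes, 2490 of 8867, 1105 of 10128, 727 of 9194 and 1928 of 8436 were below that line. The member nearest to the adjusted threshold was COL15A1 in muscle (-0.46 ± 0.13, lane 8 against lane 7, adjusted p = 0.0538 by edgeR). With the recorded diets in place of those by title, 887, 2, 1 and 281 genes were called in jejunum, kidney, liver and muscle and again 0 members. Every library recorded as control was in lane 7 and every one recorded as xylose in lane 8, so there diet and lane cannot be told apart. The other matrix lists had 0 genes called between diets in every tissue, with 0 to 2 members of a list at an unadjusted p under 0.05.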

How the data were processed

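RNA of 96 pig samples was counted by gene. The authors deposited raw counts per Ensembl gene identifier, 1 file per library, and the submitters' processing notes name STAR and featureCounts. The sources used here give no genome build, annotation release, strand setting or treatment of reads with several matches, so counts of overlapping and paralogous genes are uncertain. Symbols came from a table of gene names.

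Files were assigned by the title in their name, and libraries under 1000000 counts were left out. Counts were tested with edgeR 4.0.16 in R 4.3.3 (filterByExpr, TMM, quasi-likelihood F test, Benjamini-Hochberg over all tested genes), with DESeq2 1.42.0 as an alternative. Between tissues, 1 model held the 8 groups and lane, and a call needed an adjusted p under 0.05 and a fold of 2. Within a tissue the model held diet and lane, and the interaction was tested over all tissues. Scaled CPM uses the library total over tested genes times its TMM factor. Correlations used log2(CPM + 1) and 100000 permutations, two-sided. Of 76 planned relations, 47 had both measures in the tissue. The edgeR and correlation steps were tested on simulated data.

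Named genes were COL1A1, COL1A2, COL3A1, COL4A2, COL6A1, COL6A3 and the listed non-collagen members, other members by size of fold, and for diet the 3 smallest p in each direction. Other lists gave up to 3 genes with the largest range of means. The members and lists were chosen with earlier results of these data known. Alternatives were other scaling, filters, tests, fold minima, depth filters, lane terms, lanes alone, the recorded diets, a plate position block and other pseudocounts. Leaving out muscle xylose replicates 7 and 8 was chosen after seeing the data.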

Additional observations from a re-analysis of the deposited data

Results flagged for a closer look

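In the jejunum groups, the only ones of 10 or fewer libraries, the highest library of 5 member and group combinations of the 26 examined lay farther from the next than Dixon's 95% limit allows. For normally distributed values, chance passes that limit in about 1 group in 20. The rule was applied to scaled CPM without logs, so that rate need not hold here. POSTN in jejunum control replicate 9 stood at 25.3 scaled CPM with the next at 14.5. In jejunum xylose libraries, COL1A2 stood at 64.8 in replicate 12 (next 48.8), and FBLN1 at 7.94 in replicate 2 (next 4.63). COL6A3 at 17.7 (next 10.1) and DCN at 19.2 (next 12.6) were both highest in replicate 3.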

How the results depend on the processing

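Of 1630 tissue results for called members under the alternatives, 1583 kept direction and call, 45 lost the call and 2 reversed. The 1583 include 163 without a fold minimum, where the fit was the same and no call could be lost. Plain library totals lost 17 calls and held the 2 reversals, and glmTreat lost 16. On plain library totals, lower calls were 13 for jejunum against liver, calls for kidney against muscle were 11 higher and 10 lower, COL12A1 in jejunum against muscle was 0.13 and COL15A1 in kidney against muscle 0.14. Without the filter on low counts, members of few counts entered the fit as well, and all 163 calls of the main fit were kept. Higher calls were then 9, 15 and 8 for jejunum against kidney, liver and muscle, and kidney against muscle had 11 higher and 26 lower. Without a fold minimum, a looser rule on the same fit, kidney against liver had 5 lower. With glmTreat, a stricter test against 2-fold, jejunum against liver had 3 higher. The cause of the changes on plain library totals was not tested.

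Under the recorded diets 13 of 26 named diet results reversed, with COL4A2 -0.38 and VIM 0.62 in jejunum, COL1A2 -0.21 and COL8A1 -0.07 in kidney, LOX -0.03, COL18A1 0.34 and COL6A1 0.82 in liver, and POSTN -0.05, SPARC -0.54, TIMP1 0.27, COL6A1 0.51, COL6A3 0.10 and COL1A1 0.33 in muscle. Genes called were then 887, 2, 1 and 281. In lane 7 alone FBLN1 was 0.01 and VIM 0.32 in jejunum, in lane 8 alone COL1A1 was 0.27 in muscle, and without muscle xylose replicate 7 FN1 was -0.62 and 1 gene was called. Without muscle xylose replicate 8 FN1 was 0.57. DESeq2 called 2 genes in muscle. With all libraries, jejunum lanes differed in 2233 genes and 1 member, and with DESeq2 size factors muscle lanes in 1 member.

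On TMM-scaled CPM 9 relations passed. There COL3A1 reversed with PECAM1 in kidney (-0.04), PTPRC in muscle (-0.22), the library total in muscle (0.06) and the share of other tissues' markers in kidney (-0.04). With a pseudocount of 5, COL3A1 and PTPRC in muscle had -0.01. With all jejunum libraries COL3A1 had 0.12 with PTPRC and 0.50 with the share of other tissues' markers.

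As a replicate block, plate position gave 1, 6, 3, 17, 7 and 5 higher and 28, 21, 27, 3, 17 and 25 lower members in the 6 tissue pairs, and 0 genes with an interaction. Libraries of the same position correlated at medians of 0.10 to 0.23 between tissues and those of other positions at -0.01 to 0.04, and 3 to 6 of 18 to 24 libraries matched their own position best. There were 24 positions, as many as the animals described, and each of the 24 held 1 diet over all tissues. Not every same-position pair passed 0.1 and the labels do not tie positions to animals, so position was not used as a pairing, and whether it marks an animal was not settled. The main tissue tests treat the libraries as independent. The 17 untested members had at most 310 counts each.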
